A study of Homo sapiens with 7 samples.

Results

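The 10 regulators of canonical WNT signalling described here were looked up on 7 arrays of PC-3 prostate cancer cells. They are the receptors LGR4, LGR5 and LGR6, the ubiquitin ligase RNF43, the secreted antagonist DKK1 and the scaffold AXIN2. The others are the DNA-binding factors LEF1, TCF7 and TCF7L2, and the corepressor TLE4. All probe sets that the array's annotation pairs with these names and no other were taken. They number 27 of 54675 probe sets and belong to 9 of the 19775 genes with a probe set of their own. TCF7, with no probe set paired with its name alone, was not analysed here. Of the 27 probe sets, 21 reached the filter on low values, a mean log2 signal equal to about 143 in units of signal, so 8 of the 10 genes could be tested among 13618 genes. LGR6 stayed below the filter.

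In canonical WNT signalling, a WNT ligand binds a Frizzled receptor and its LRP partner at the cell surface and stops the breakdown of beta-catenin, which then joins LEF1 or a TCF factor on DNA and turns target genes on. Without the ligand, the same factors hold TLE corepressors on those genes. R-spondins strengthen the signal by binding LGR receptors and drawing RNF43 and ZNRF3, which remove Frizzled receptors, away from the membrane. LGR5 is best known as a marker of stem cells at the base of the intestinal crypt, and in the prostate WNT signals take part in the budding and growth of the gland.

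PC-3 is an established line from a bone metastasis of prostate cancer, and the cells on all 7 arrays descend from it and express luciferase. The 3 sublines called PC-3-descended do not have TEM4-18 named in their descriptions. GS672.Ug was recovered from the urogenital tract of a mouse after PC-3 was injected into a vein. GS689.Li, from the liver, and GS694.LAd, from the left adrenal, came from an injection of JD549.Ki, a kidney line that itself came from PC-3. The descriptions give PC-3 as the origin of every subline, so they do not settle whether JD549.Ki ever passed through TEM4-18. The 2 TEM4-18-derived sublines, GS683.LALN and JD1203.Lu, were recovered from mice given TEM4-18. TEM4-18, with 2 arrays, is PC-3 selected in culture for passage through a layer of lung microvascular endothelial cells. All were grown untreated in DMEM/F12 with 10% FBS. Each subline is 1 culture on 1 array, PC-3 itself and its kidney line were not analysed here, and the labels do not say whether the TEM4-18 duplicates were separate cultures, so p-values measure only the spread among these arrays.

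The labels disagree in places. JD1203.Lu has JD549.Ki as its source name, though its title, its cell line field and its description give it as a lung subline of TEM4-18, and the organ of GS683.LALN is a lymph node in one field and the lung in another. Values without JD1203.Lu are therefore also given for the results that use the TEM4-18-derived sublines as a group and for the LGR5 and TNFRSF19 calls. The deposited arrays share 1 trimmed mean, and array medians ran from 239 to 297. The line markers KRT8 (2775 to 7665), KRT18 (29052 to 38315) and VIM (61696 to 81724), genes of intermediate filaments, lay far above the filter on every array. KLK3, the gene of prostate-specific antigen, which PC-3 is known to lack or nearly lack, had signals of 729.5 to 1347 from 1 probe set of a type that can match several transcripts. Across the 13618 genes, 538 (3.95%) lay at least 2-fold apart between the TEM4-18 duplicates. Among the 8 tested regulators only RNF43 did so, at 2.20-fold, followed by LEF1 at 1.55-fold and TLE4 at 1.36-fold, while DKK1 and LGR5 lay 1.01-fold and 1.02-fold apart.

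**Figure D1:**
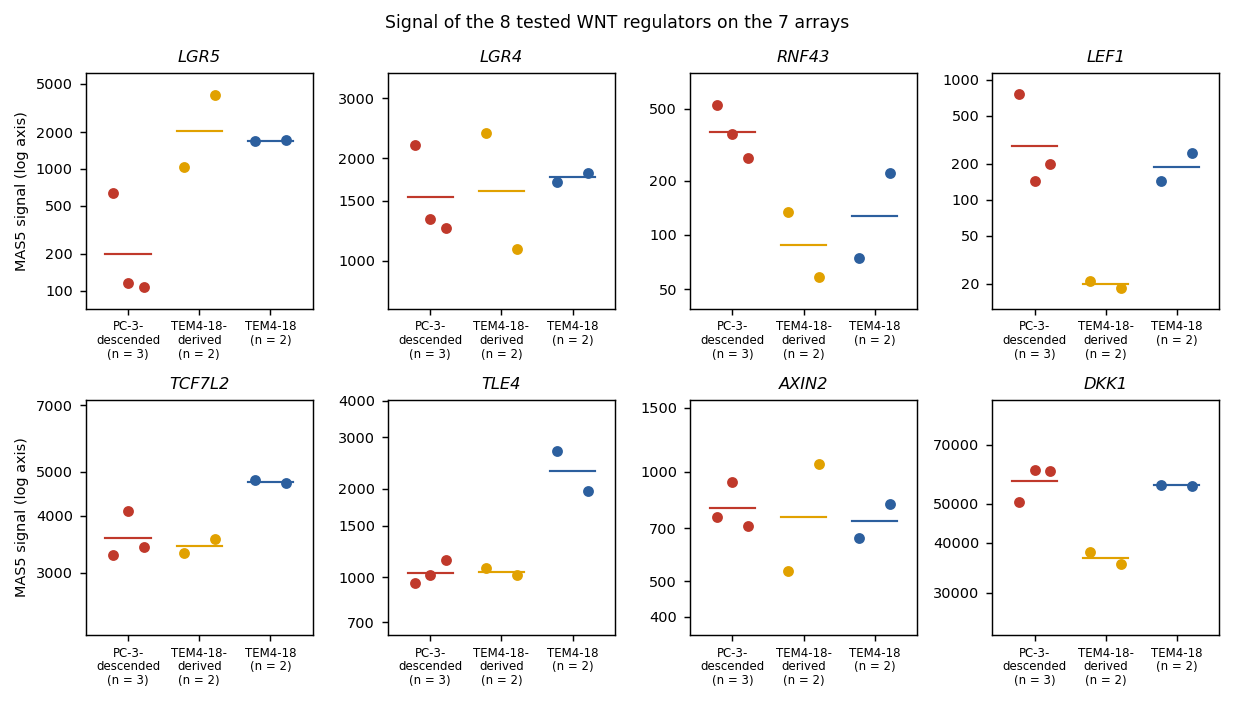
MAS5 signal (log axis, each panel with its own range) of the 8 tested regulators, from the probe set of highest mean for each gene. Points are single arrays and lines are geometric means of the 3 PC-3-descended, 2 TEM4-18-derived and 2 TEM4-18 arrays. LGR5 signals of the PC-3-descended sublines lie below all others, LEF1 is lowest in the TEM4-18-derived sublines, and TLE4 is highest in TEM4-18.

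The first question was whether regulators differ by parent line. LGR5, a receptor for R-spondins, was lower in the 3 PC-3-descended sublines than in the 4 arrays of the TEM4-18 lineage, which join TEM4-18 and the TEM4-18-derived sublines. Its signal was 631 in GS672.Ug, with 116 in GS689.Li and 106 for GS694.LAd, against 1036 in GS683.LALN, 4084 in JD1203.Lu and 1691 and 1718 in TEM4-18. The groups did not overlap, and the sublines grown from JD549.Ki were the lowest of all, with signals under the level of the filter. Since an array holds RNA of a whole culture, fewer cells with LGR5 and less LGR5 RNA per cell cannot be told apart. The LGR5 gene lies at chr12:71439129-71586310 (GRCh38.p14).

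Differences were tested with limma on log2 of the signal plus an offset of 46.9, which understates the change of genes with low signal, and p-values were adjusted by Benjamini-Hochberg over the 13618 genes. On this scale LGR5 differed by -2.90 ± 0.55 (SE, n = 3 and 4, limma adjusted p = 0.0166), or 7.49-fold lower. It was the only 1 of the 8 tested regulators to pass lower, and none passed higher, where 1.72% of all genes tested were lower and 2.79% were higher. The regulators, and the lists by role described further on, were chosen with earlier results of these data known. Such counts therefore test nothing about them as a set. A second LGR5 probe set ran the same way, with 361, 13.7 and 23.0 in GS672.Ug, GS689.Li and GS694.LAd, against 465, 1196, 570 and 795 in GS683.LALN, JD1203.Lu and the TEM4-18 duplicates. Its difference of -2.66 ± 0.61 is a description only, because 13.7 and 23.0 lie under the offset and this probe set reached the filter of 7.57 in mean log2 signal through the TEM4-18 lineage (mean 6.91 in PC-3-descended sublines and 9.57 in the lineage).

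The LGR5 call did not hold without GS689.Li (-2.58, limma adjusted p = 0.094), without GS694.LAd (-2.53, limma adjusted p = 0.0961), or with both averaged as 1 sample because they share a parent (-2.55, limma adjusted p = 0.0962). Without JD1203.Lu it did (-2.54, limma adjusted p = 0.0266), but with that array counted among the PC-3-descended sublines the difference was -1.54 (limma adjusted p = 0.514).

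Of 7 endothelial markers listed, 2 moved with the same split. KDR, a receptor for vascular growth factors, was higher in the PC-3-descended sublines by 2.69 ± 0.38 on the log2 scale (limma adjusted p = 0.0036), and PECAM1, an adhesion protein of endothelium, by 1.06 ± 0.19 (limma adjusted p = 0.0119). The other 5, CDH5, VWF, TEK, TIE1 and ERG, stayed below the filter, and their signals overlapped between the lineages; CDH5, which defines endothelium, had 5.25 to 17.2 in PC-3-descended sublines and 4.12 to 88.2 in the TEM4-18 lineage. The summed signal of the 7 was 6797 to 7999 in PC-3-descended sublines and 1484 to 2651 in the TEM4-18 lineage, and most of it came from KDR (4535 to 6380 and 318 to 1327) and PECAM1 (1372 to 1903 and 604 to 828). The part of these markers in the LGR5 result was not tested. The summed signal of 6 fibroblast markers was 12915 to 17088 in PC-3-descended sublines and 4409.7 to 31633 in the TEM4-18 lineage. Most of it came from COL1A1 (11763 to 16448 and 3071 to 30752). The summed signal of 5 leukocyte markers was 602 to 768 and 676 to 917. Of the other markers of crypt stem cells, OLFM4, ASCL2 and CDX2 were below the filter, and SMOC2 had signals of 156 to 641 in PC-3-descended sublines and 106 to 340.4 in the TEM4-18 lineage.

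The other LGR receptors gave no such split. LGR4, the most widely expressed of the family, had signals of 2191, 1326 and 1242 in GS672.Ug, GS689.Li and GS694.LAd, against 2366, 1083, 1706 and 1809 in GS683.LALN, JD1203.Lu and the TEM4-18 duplicates. These groups overlap, and the difference was -0.13 ± 0.28 (limma adjusted p = 0.845). The other 2 LGR4 probe sets were below the filter, with signals of 12.5 to 201. LGR6 had 211, 149 and 30.3 in the PC-3-descended sublines, against 122 and 62.1 in the TEM4-18-derived sublines and 97.6 and 192 in TEM4-18, all near or below the level of the filter.

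RNF43, which marks Frizzled receptors for removal and is the target of the R-spondin and LGR complex, lay the other way from LGR5. Its signal was 526 in GS672.Ug, 365 in GS689.Li and only 269 in GS694.LAd, against 134 in GS683.LALN, 58.4 in JD1203.Lu and 74.4 and 220.2 in TEM4-18. The groups did not overlap, which held for 1 regulator higher and 1 lower (LGR5) of 8, where 11.2% of all genes lay apart higher and 7.89% lower. RNF43 reached the filter through the PC-3-descended sublines, with a mean log2 signal of 8.72 there and 7.30 in the TEM4-18 lineage, so this separation is a description only. The difference was 1.42 ± 0.41, and RNF43 did not pass (limma adjusted p = 0.0852).

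LEF1, which brings beta-catenin to DNA and is itself a known WNT target, varied among the PC-3-descended sublines as well as between lineages. Its signal was 752 in GS672.Ug but 143 in GS689.Li and 199 in GS694.LAd, against 21.2 in GS683.LALN, 18.6 in JD1203.Lu and 142 and 247 in TEM4-18. So GS672.Ug stood highest, the TEM4-18-derived sublines lowest, and GS689.Li and GS694.LAd within the range of TEM4-18. By parent line LEF1 differed by 1.41 ± 0.67 (limma adjusted p = 0.280), and the groups overlap. This difference is a description only, because LEF1 reached the filter of 7.57 through the PC-3-descended sublines. Its mean log2 signal was 8.38 there and 6.97 in the TEM4-18 lineage, where the signals of GS683.LALN and JD1203.Lu lie under the offset. The other 2 LEF1 probe sets, both below the filter with signals of 8.77 to 133, did not follow this order.

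The remaining regulators differed less by parent line. TLE4 differed by -0.57 ± 0.31 (limma adjusted p = 0.356), DKK1 by 0.33 ± 0.17 (limma adjusted p = 0.322), TCF7L2 by -0.17 ± 0.17 (limma adjusted p = 0.631) and AXIN2 by 0.09 ± 0.24 (limma adjusted p = 0.876). All 4 had overlapping groups, and the sign of AXIN2 turned with median centring. Over the 8 tested regulators 4 differences were positive and 4 negative, with a median of -0.016, beside a median of 0.052 over all genes. With each array centred on its median instead, 3 were positive and 5 negative, with a median of -0.20 beside -0.13 over all genes.

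**Figure D2:**
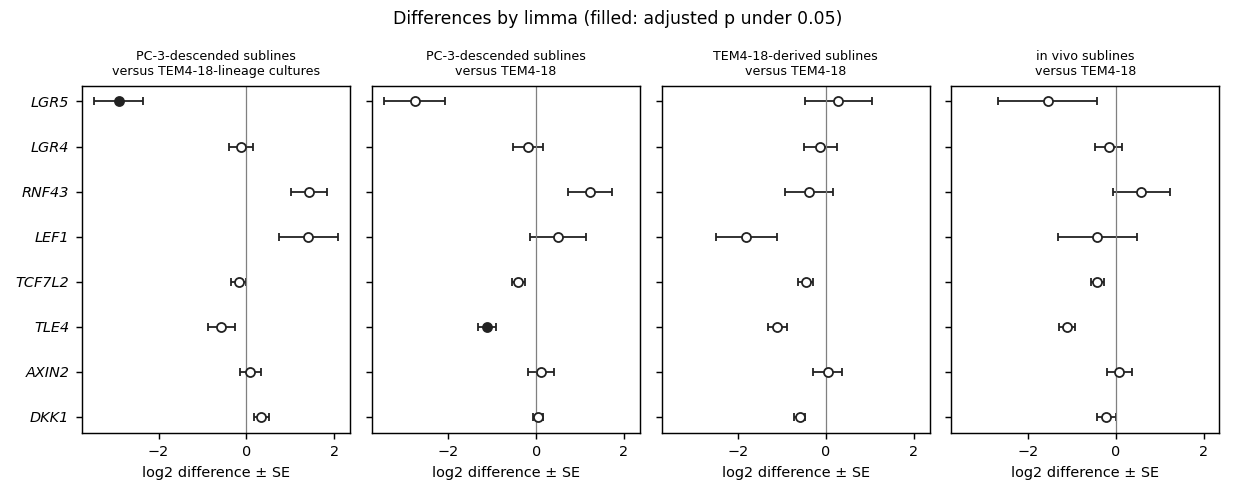
Log2 differences (points) with limma standard errors (bars) of the 8 tested regulators in 4 comparisons. Filled points have an adjusted p under 0.05: LGR5 in the comparison by parent line and TLE4 between the PC-3-descended sublines and TEM4-18.

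The comparisons with TEM4-18 that follow share its 2 arrays, so their values are not independent of each other. Against TEM4-18 alone, the PC-3-descended sublines were lower in TLE4, a corepressor that TCF factors hold on target genes. TLE4 signals were 951 in GS672.Ug, 1016 for GS689.Li and 1144 for GS694.LAd, against 2695 and 1976 in TEM4-18. The difference was -1.12 ± 0.20 (n = 3 and 2, limma adjusted p = 0.0212), or 2.18-fold lower. TLE4 was the 1 regulator of 8 that passed lower, and none passed higher, beside 0.999% lower and 2.29% higher of all genes.

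The TEM4-18-derived sublines had TLE4 signals of 1075 and 1015, as low as the PC-3-descended ones, against the same 2695 and 1976 in TEM4-18. Their difference was of like size, -1.11 ± 0.22, and did not pass (n = 2 and 2, limma adjusted p = 0.168). All 5 TLE4 probe sets were lower in the PC-3-descended sublines than in TEM4-18, by -1.27 to -1.08 for 4 of them and by -0.41 ± 0.41 for the fifth. In a fit of all probe sets only the one used for the gene passed.

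The TLE4 call rests on few arrays. It did not hold without TEM4-18 replicate 1 (-0.90, limma adjusted p = 0.311), TEM4-18 replicate 2 (-1.34, limma adjusted p = 0.123), GS689.Li (-1.11, limma adjusted p = 0.0815) or GS694.LAd (-1.19, limma adjusted p = 0.0719), nor with the last pair averaged (limma adjusted p = 0.0678), with the probe sets averaged (-1.02, limma adjusted p = 0.0984), or with JD1203.Lu counted as PC-3-descended (-1.13, limma adjusted p = 0.0891).

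TLE4 lies at chr9:79571965-79726882 (GRCh38.p14). Promoter windows of 300 bases, from 250 before to 50 after a start of transcription, were searched for CTTTGA on either strand (TCAAAG on the printed strand), the core that TCF and LEF factors are known to bind. The 4536 windows with a match are 12.9% of 35116 windows of RefSeq genes (GRCh38.p14). The table gave 15 windows for 8 of the 10 regulators, and 3 of them held a match. These are shown because they belong to TLE4 and DKK1, both of which passed in a comparison here. DKK1 passed only in a direct comparison of sublines, given below, that was chosen after the data were seen. No window was given for LGR5, which passed by parent line, or for AXIN2. Capitals mark the match, and each is a description of letters, not a site shown to be bound. The windows run 5′ to 3′ on the plus strand.
TLE4, chr9:79571715-79572014: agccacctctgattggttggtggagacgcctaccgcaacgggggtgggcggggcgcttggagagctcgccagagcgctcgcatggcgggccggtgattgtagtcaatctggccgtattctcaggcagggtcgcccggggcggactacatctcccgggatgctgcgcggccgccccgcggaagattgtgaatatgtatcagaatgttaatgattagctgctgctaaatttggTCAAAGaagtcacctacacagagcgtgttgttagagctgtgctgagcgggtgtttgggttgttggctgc
TLE4, chr9:79572927-79573226: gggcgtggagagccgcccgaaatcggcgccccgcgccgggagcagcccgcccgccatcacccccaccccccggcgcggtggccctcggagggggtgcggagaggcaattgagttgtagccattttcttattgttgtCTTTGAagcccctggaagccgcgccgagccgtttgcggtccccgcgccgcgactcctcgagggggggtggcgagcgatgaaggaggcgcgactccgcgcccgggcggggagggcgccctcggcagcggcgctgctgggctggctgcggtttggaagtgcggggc
DKK1, chr10:52314031-52314330: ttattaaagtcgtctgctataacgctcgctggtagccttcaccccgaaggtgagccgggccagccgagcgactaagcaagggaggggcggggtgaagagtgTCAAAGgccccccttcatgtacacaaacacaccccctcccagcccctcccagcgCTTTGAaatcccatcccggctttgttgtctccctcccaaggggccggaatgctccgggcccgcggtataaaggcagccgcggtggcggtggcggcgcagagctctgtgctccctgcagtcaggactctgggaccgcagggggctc

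In TLE4 the match begins 19 bases before the start in the first window and 114 bases before it in the other. DKK1 holds 2 matches, 149 and 95 bases before its start. The windows of LGR4, LGR6, LEF1, TCF7, TCF7L2 and RNF43 hold none of these letters.

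LGR5 had the largest difference of the regulators between the PC-3-descended sublines and TEM4-18, -2.77 ± 0.70, with no overlap, and did not pass (limma adjusted p = 0.0735). It passed without GS672.Ug (-3.47, limma adjusted p = 0.0102), the PC-3-descended subline with the highest LGR5 signal. The PC-3-descended arrays left there, at 116 and 106, lie under the level of the filter, so this pass is a description only. The value was also past the threshold without GS683.LALN (limma adjusted p = 0.0423) or JD1203.Lu (limma adjusted p = 0.0432), which enter this fit only through the estimate of the spread. RNF43 differed by 1.22 ± 0.50 (limma adjusted p = 0.242). LEF1, LGR4, AXIN2 and DKK1 had overlapping groups, with differences of 0.50, -0.19, 0.11 and 0.03; median centring turned the sign for AXIN2 (-0.082) and DKK1 (-0.16).

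TCF7L2, the TCF factor with the most probe sets here, was the fourth regulator without overlap. Its signal was 3284, 4094 and 3423 in GS672.Ug, GS689.Li and GS694.LAd, against 4802 and 4716 in TEM4-18. The difference was -0.40 ± 0.16 (limma adjusted p = 0.224), and all 7 probe sets had negative differences, of -0.68 to -0.16. Between these groups 1 regulator lay apart higher and 3 lower, where 23.6% and 17.6% of all genes did. The 1 apart higher was RNF43, with a mean log2 signal of 8.72 in the PC-3-descended sublines and 7.49 in TEM4-18. It reached the filter of 7.57 through the former, so its separation is a description only.

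The sublines grown in mice from TEM4-18 were then set against the line that had been injected. None of the 8 regulators passed, in a comparison in which 0.0514% of the 13618 genes passed higher and 0.0147% lower, 7 and 2 genes. Of the 8, 4 had an unadjusted p under 0.05 in limma, where 1318 of the 13618 genes did. The same 4 lay lower without overlap, namely TLE4, DKK1, LEF1 and TCF7L2, where 20.4% of all genes lay apart lower. LEF1 is under the filter in the TEM4-18-derived sublines, at a mean log2 signal of 6.06, against 7.88 in TEM4-18, so nothing is read from its separation or its unadjusted p. None lay apart higher, where 23.7% of all genes did.

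DKK1, which blocks the LRP partner of Frizzled receptors and is itself a known WNT target, lay far above the filter on every array. Its signal was 38024 in GS683.LALN and 35357 in JD1203.Lu, against 55786 and 55391 in TEM4-18, and the PC-3-descended sublines had 50575, 60524 and 60244. The TEM4-18-derived sublines were thus the lowest. Their difference from TEM4-18 was -0.60 ± 0.12 (n = 2 and 2, limma adjusted p = 0.187).

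LEF1 differed by -1.82 ± 0.70 between the TEM4-18-derived sublines and TEM4-18 (limma adjusted p = 0.457), and the signals of both sublines lie under the offset. TCF7L2, at 3322 and 3565 against 4802 and 4716 in TEM4-18, differed by -0.46 ± 0.17 (limma adjusted p = 0.440). The 2 sublines went opposite ways in LGR5, below TEM4-18 in GS683.LALN and above it in JD1203.Lu, and the difference of the pair was 0.27 ± 0.76 (limma adjusted p = 0.937). RNF43 differed by -0.38 ± 0.54, less than the distance between its duplicates. Without JD1203.Lu, with GS683.LALN assumed to vary like the other groups, the differences were -0.55 for DKK1, -1.79 for LEF1, -0.51 for TCF7L2 and -1.07 for TLE4, and none passed.

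AXIN2, a scaffold of the destruction complex and the most used readout of canonical WNT activity, showed no order by group. Its signal was 753, 935 and 709.7 in GS672.Ug, GS689.Li and GS694.LAd, against 534 and 1054 in GS683.LALN and JD1203.Lu and 656 and 815 in TEM4-18. The lowest and the highest value were both in TEM4-18-derived sublines, and the difference of that group from TEM4-18 was 0.04 ± 0.33 (limma adjusted p = 0.982). By parent line 2 of the 3 probe sets that reached the filter were negative, at -0.65 ± 0.46 and -0.11 ± 0.40. The one used for the gene was positive, at 0.09 ± 0.24, though negative with each array centred on its median (-0.092). The value of -0.65 is a description only, because that probe set reached the filter of 7.57 through the TEM4-18 lineage. Its mean log2 signal was 7.20 in the PC-3-descended sublines and 7.85 in the lineage. The other 2 differences are smaller than their standard errors, so they do not show that the probe sets disagree.

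The comparison that the design states is of all 5 in vivo sublines with TEM4-18. In it limma called 0 of 13618 genes (0%), with 1122 genes and 2 regulators, TLE4 and TCF7L2, at an unadjusted p under 0.05. These were also the 2 regulators that lay below TEM4-18 in all 5 sublines, where 6.98% of all genes did, and none of the 8 lay above it in all 5, where 9.51% of all genes did. TCF7L2 differed by -0.43 ± 0.15 (n = 5 and 2, limma adjusted p = 0.514), and its 7 probe sets ran from -0.70 to -0.30. TLE4 probe sets ran from -1.23 to -0.40. LGR5 differed by -1.55 ± 1.12 and LEF1 by -0.43 ± 0.90, with overlap and a spread among the sublines that exceeds that of the duplicates.

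**Figure D3:**
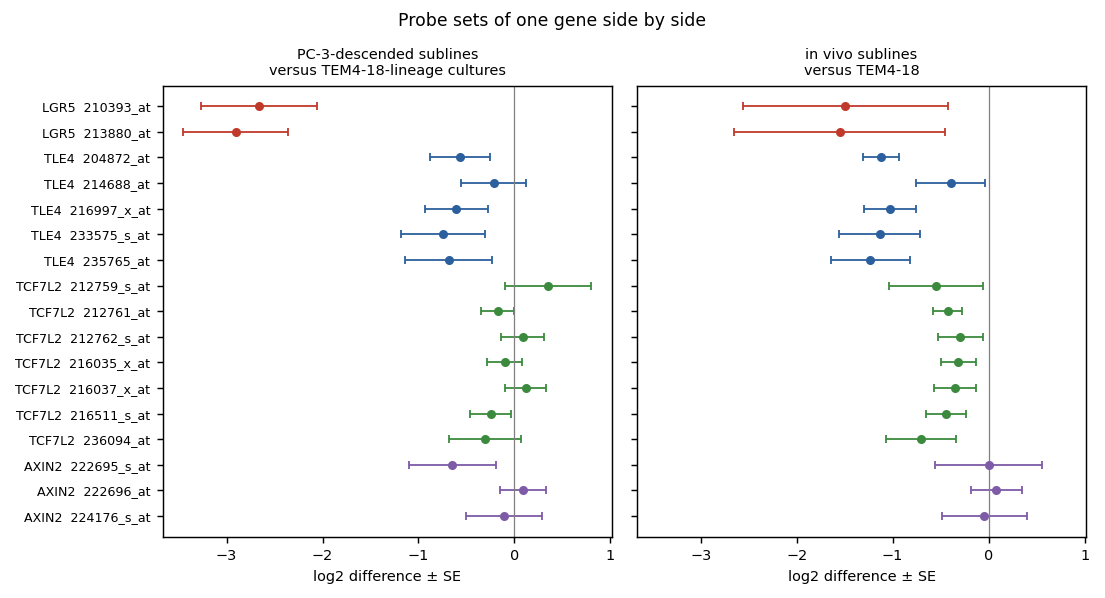
Log2 differences with limma standard errors for each probe set that reached the filter of LGR5, TLE4, TCF7L2 and AXIN2, by parent line (left) and for the 5 in vivo sublines against TEM4-18 (right). Both LGR5 probe sets are far below 0 on the left, and all TLE4 and TCF7L2 probe sets are below 0 on the right, while those of AXIN2 lie around 0.

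Because DKK1 and LEF1 were lowest in the TEM4-18-derived sublines, the PC-3-descended sublines were also compared with these directly, a comparison chosen after the data were seen. Of 8 regulators 1 passed higher and 1 lower, beside 2.12% higher and 1.6% lower of all genes. DKK1 was higher in PC-3-descended sublines by 0.63 ± 0.11 (n = 3 and 2, limma adjusted p = 0.0194), or 1.55-fold. LGR5 was lower by -3.04 ± 0.70 (limma adjusted p = 0.0496), close to the threshold.

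LEF1 differed by 2.32 ± 0.64 (limma adjusted p = 0.0864) and RNF43 by 1.61 ± 0.50 (limma adjusted p = 0.120). Both reached the filter through the PC-3-descended sublines, LEF1 with a mean log2 signal of 8.38 there and 6.06 in the TEM4-18-derived sublines and RNF43 with 8.72 and 7.11, so that they lay apart higher is a description only. DKK1 also lay apart higher, where 18.5% of all genes did, and LGR5 lower, where 14.2% did. TLE4 differed by -0.01 ± 0.20 (limma adjusted p = 0.979). Without JD1203.Lu the differences were 0.58 for DKK1 (limma adjusted p = 0.0552), -2.08 for LGR5 (limma adjusted p = 0.191), 2.29 for LEF1 (limma adjusted p = 0.180) and 1.22 for RNF43 (limma adjusted p = 0.320). Neither call held without GS689.Li, GS694.LAd or either TEM4-18 array: there the adjusted p of DKK1 in limma was 0.0676 to 0.0931 and that of LGR5 0.105 to 0.167.

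Single sublines have 1 array each and were compared with the mean of the duplicates by size alone, counting a regulator at least 2-fold away and outside both duplicates. In GS672.Ug, LEF1 was 3.39-fold and RNF43 3.18-fold higher, and LGR5 was 2.58-fold and TLE4 2.36-fold lower, where 5.65% of all genes were counted higher and 2.22% lower. In GS689.Li, RNF43 was 2.29-fold higher, and LGR5 was 10.7-fold and TLE4 2.21-fold lower, beside 7.28% higher and 2.33% lower. In GS694.LAd only LGR5 was counted, at 11.4-fold lower, beside 7.42% higher and 2.61% lower, and TLE4 stood just inside at 1.98-fold lower. The RNF43 folds in GS672.Ug and GS689.Li are a description only. The mean log2 signal of RNF43 in the duplicates was 7.49, under the filter of 7.57, and the duplicates lie 2.20-fold apart in it.

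Of the TEM4-18-derived sublines, GS683.LALN had LEF1 3.46-fold and TLE4 2.10-fold lower and no regulator higher, where 3.03% of all genes were lower and 2.37% higher. JD1203.Lu had LGR5 2.36-fold higher, with LEF1 3.60-fold and TLE4 2.22-fold lower, where 4.35% of all genes were higher and 3.96% lower. The LEF1 signals of both sublines lie under the offset of 46.9, so the size of these LEF1 folds is set by it, and with the larger offset no regulator was counted for GS683.LALN. LGR5 left the range of TEM4-18 in both directions, while TLE4 was below it in all 5 sublines.

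The genes whose profile over the 7 arrays lay nearest to that of LGR5, by root mean square distance between centred log2 values, were TRIP6 (0.574), L3HYPDH (0.623) and KLHL36 (0.624), where the LGR5 profile itself had a root mean square of 1.66 about its mean. TRIP6 signals were 2589.6, 1253 and 1843 in GS672.Ug, GS689.Li and GS694.LAd, against 9574 and 17253 in GS683.LALN and JD1203.Lu and 8786 and 9045 in TEM4-18. Nearest to LEF1 were PPP2R2C (0.419), LYN (0.513) and CMTM8 (0.518). PPP2R2C shared the high value of GS672.Ug, 883, against 101 and 174 in the other PC-3-descended sublines, 76.8 and 47.4 in the TEM4-18-derived ones and 135 and 193 in TEM4-18. Nearest to TLE4 were MCM5 (0.130), KIF15 (0.148) and TBL1X (0.210). MCM5, a subunit of the replicative helicase, had signals of 3823 to 4490.1 in the 5 in vivo sublines, against 8593 and 7581 in TEM4-18.

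Other genes of the pathway were described from 7 lists by role, with 99 genes, of which 66 could be tested. By parent line none of the 66 passed higher and 1 passed lower, beside 2.79% and 1.72% of all genes, and the median difference was 0.078, beside 0.052 over all genes. The gene that passed was TNFRSF19 (TROY), a receptor of the tumour necrosis factor family and a known WNT target in the crypt. Its signal was 1144, 1541 and 1414 in GS672.Ug, GS689.Li and GS694.LAd, against 2452 and 3102 in GS683.LALN and JD1203.Lu and 2403 and 2300.0 in TEM4-18. The groups did not overlap, and the difference was -0.89 ± 0.17 (limma adjusted p = 0.0177). The call did not hold without GS694.LAd (-0.92, limma adjusted p = 0.0746) or with GS689.Li and GS694.LAd averaged (-0.95, limma adjusted p = 0.0595). It held without JD1203.Lu (-0.79, limma adjusted p = 0.0234) but not with that array counted as PC-3-descended (-0.50, limma adjusted p = 0.476). Directly against the TEM4-18-derived sublines TNFRSF19 was lower, at -0.999 ± 0.19 (limma adjusted p = 0.0295), a call lost without GS689.Li, GS694.LAd, JD1203.Lu or either TEM4-18 array, where the adjusted p in limma was 0.0621 to 0.0956.

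Among ligands and their secretion 11 of 21 genes were tested and none passed. The 2 largest differences by parent line were those of WNT10A (1.00 ± 0.47) and WNT2B (-0.78 ± 0.44). Each reached the filter through the group where it is higher, so both differences are a description only. In the lower group, 1 array of each lay under the offset, WNT10A at 22.9 in TEM4-18 replicate 1 and WNT2B at 45.5 in GS694.LAd. Of the receptors, 11 of 15 were tested, 7 had negative differences, and the median was -0.22, or -0.41 with median centring. FZD5 (-0.59 ± 0.21) and FZD4 (-0.57 ± 0.26), both Frizzled receptors, had the largest differences, and none passed. Of the R-spondins and the ligase that partners RNF43, only the ligase gene ZNRF3 was tested, at -0.11, with signals of 2040.1 to 2361 in PC-3-descended sublines and 1992 to 2535 in the TEM4-18 lineage. All 4 R-spondin genes listed were untested.

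Of the secreted antagonists 3 of 14 were tested, and none passed. SFRP1, which binds WNT ligands, differed by 1.35 ± 0.71 through 1 array: its signal was 1951 in GS672.Ug but 192 and 194 in GS689.Li and GS694.LAd, against 52.4 to 241 in the TEM4-18 lineage. NOTUM, an enzyme that inactivates WNT ligands, differed by -0.38 ± 0.40.

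The cytoplasmic genes had all 16 listed members tested. None passed. By parent line 14 were positive and 2 negative, with a median of 0.18, beside 0.052 over all genes, but with median centring 7 were positive and 9 negative, with a median of -0.0019 beside -0.13 over all genes. The largest were TNIK, a kinase that acts with TCF7L2 (1.29 ± 0.39, limma adjusted p = 0.0995), and the casein kinase CSNK1E (0.95 ± 0.24, limma adjusted p = 0.0592). CTNNB1, the gene of beta-catenin, had signals of 8890 to 10369 in PC-3-descended sublines and 7382 to 9631 in the TEM4-18 lineage.

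Nuclear partners had 13 of 14 members tested, with 9 positive, 4 negative (4 and 9 with median centring) and none past the threshold by parent line. TLE2, a corepressor of the same family as TLE4, lay opposite to it. Its signal was 848, 1869 and 1857 in GS672.Ug, GS689.Li and GS694.LAd, against 756 and 732 in GS683.LALN and JD1203.Lu and 469 and 468 in TEM4-18. TEM4-18 was the lowest, and the TEM4-18-derived sublines lay between. By parent line TLE2 differed by 1.22 ± 0.31 (limma adjusted p = 0.0531), and BCL9L, a beta-catenin cofactor, by -0.57 ± 0.15 (limma adjusted p = 0.0679).

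Against TEM4-18 alone TLE2 was higher in the PC-3-descended sublines by 1.52 ± 0.33 (limma adjusted p = 0.0439), the 1 listed gene of 66 to pass, where 2.29% of all genes passed higher and 0.999% lower. The call did not hold without GS689.Li (1.34, limma adjusted p = 0.159), GS694.LAd (1.34, limma adjusted p = 0.163), TEM4-18 replicate 1 (1.53, limma adjusted p = 0.299) or TEM4-18 replicate 2 (1.52, limma adjusted p = 0.280), nor with median centring (1.33, limma adjusted p = 0.0533) or JD1203.Lu counted as PC-3-descended (1.29, limma adjusted p = 0.256). None of the 66 passed between the TEM4-18-derived sublines and TEM4-18 or between the in vivo sublines and TEM4-18.

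Textbook target genes had 11 of 14 members tested. Beside TNFRSF19, which passed, 6 differences were positive and 4 negative by parent line, and the median of all 11 was 0.017. With median centring 2 of the 11 were positive and 9 negative, with a median of -0.17 beside -0.13 over all genes. SP5, a direct target of canonical signalling in many tissues, differed by 0.97 ± 0.36 (limma adjusted p = 0.170). CCND1 (cyclin D1) differed by 0.03 and CD44 (an adhesion receptor) by -0.05.

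**Figure D4:**
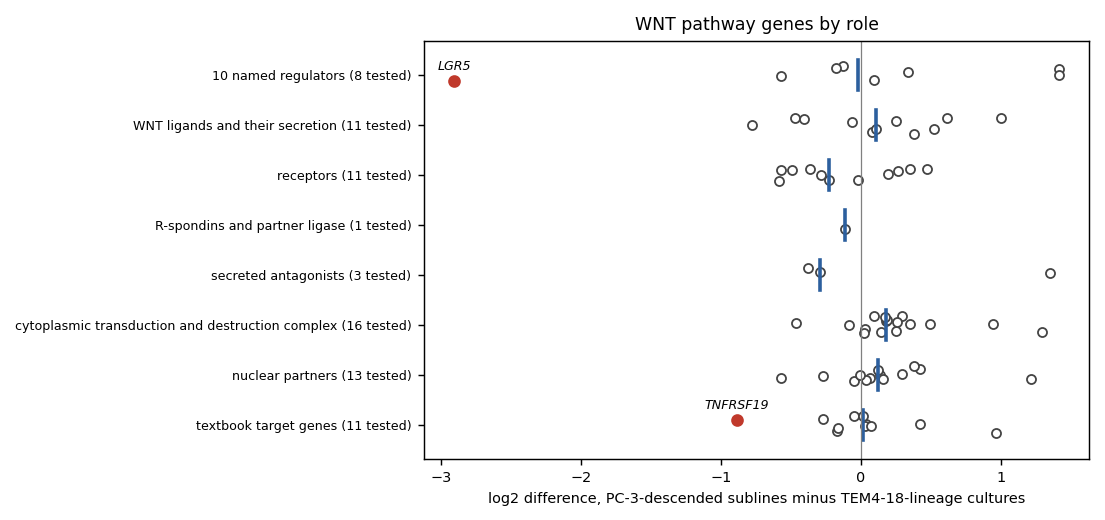
Log2 differences of the tested members of the 10 regulators and of 7 role lists, PC-3-descended sublines minus TEM4-18-lineage cultures. Each point is 1 gene, blue bars are medians, and the filled points, LGR5 and TNFRSF19, have an adjusted p under 0.05 in limma.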

How the data were processed

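Total RNA was hybridised to 1-colour Affymetrix arrays, 7 in all. The deposited intensity values are linear and come from MAS5, which the submitters' processing notes name without a version. Groups follow the parent line in the labels. The array annotation gives 1 symbol for 41097 of 54675 probe sets, several for 1801 and none for 11777; 62 probe sets are controls. Values were taken to log2 after adding 46.9, their 20th percentile. Probe sets under the 40th percentile of mean log2 signal were left out, and for each gene the probe set with the highest mean was used. Tests were 2-sided, with lmFit and eBayes (intensity trend) of limma 3.58.1 in R 4.3.3 and Benjamini-Hochberg adjusted p under 0.05. The comparison by parent line and that of all in vivo sublines used 2 groups each, the others a model of 3 groups. Sequences and coordinates are RefSeq's (GRCh38.p14).

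All 10 regulators were named whatever their values. Of each role list, genes that passed were named, otherwise the 2 of largest size by parent line, with CTNNB1, SP5, CCND1 and CD44 added after their values were seen. The regulators and lists were chosen with earlier results of these data known. On simulated data for the comparison by parent line (13618 genes), 38 of 67 genes changed by 1 on the log2 scale were recovered. So were 56 of 67 changed by 2 and 62 of 66 changed by 3, with 7 false calls. These rates describe the simulated arrays and may be too favourable for the real ones, some of which are related. With the pair of sublines that share a parent averaged, the 614 real calls by parent line became 215. Alternatives covered offset, filter, scaling, choice of probe set, trend, averaging of related arrays and leaving out each array. The number of arrays limits the precision.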

Additional observations from a re-analysis of the deposited data

Results flagged for a closer look

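In 2 of the 8 tested regulators the distance of the PC-3-descended sublines from TEM4-18 differed from that of the TEM4-18-derived sublines in limma, where 2.12% of all genes were higher and 1.6% lower. TEM4-18 cancels in this difference of distances, so it is the direct comparison of the 2 subline groups given above and no separate test. For DKK1 it was 0.63 ± 0.11 on the log2 scale (limma adjusted p = 0.0194): 0.03 for the PC-3-descended sublines and -0.60 for the TEM4-18-derived ones. For LGR5 it was -3.04 ± 0.70 (limma adjusted p = 0.0496), from -2.77 and 0.27. The comparison was chosen after DKK1 and LEF1 were seen to be lowest in the TEM4-18-derived sublines. Of 20 alternatives the DKK1 call was lost in 10 and the LGR5 call in 12. No array lay apart from its own group by Dixon's criterion in the 16 groups of values examined, each regulator in the 4 arrays of the TEM4-18 lineage and in the 5 in vivo sublines.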

How the results depend on the processing

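No paired analysis was possible because only the TEM4-18 arrays carry replicate numbers. The number of genes that passed by parent line, 614, became 1125 with each probe set on its own, 379 with no intensity trend, 215 with GS689.Li and GS694.LAd averaged, 373 with the duplicates averaged and 35 with JD1203.Lu counted as PC-3-descended, and 197 to 937 with single arrays left out. The 448 of the PC-3-descended sublines against TEM4-18 became 808, 158, 145, 35 and 14 under those settings, and 31 to 925. The 507 against the TEM4-18-derived sublines became 889, 130, 168, 208 and 47, and 151 to 1142. The 9 of the TEM4-18-derived sublines against TEM4-18 became 3 with no trend, 2 with the duplicates averaged and 4 with JD1203.Lu regrouped, and 2 to 142; the 0 of the in vivo sublines became 4 with no offset and 5 with median centring, and 0 to 14. Median centring gave 264 higher and 641 lower by parent line, beside 380 and 234, 204 and 303 against TEM4-18, beside 312 and 136, and 180 and 445 against the TEM4-18-derived sublines, beside 289 and 218; it moved the median of all genes by parent line to -0.13.

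Of the regulators, 0 passed by parent line with no trend, the related pair averaged or JD1203.Lu regrouped, and 0 to 1 with single arrays left out. LGR5 kept its sign in all 20 alternatives and its call in 15 of them, and with no trend its adjusted p in limma was 0.0540. Against TEM4-18, 2 passed with median centring (LGR5 too, limma adjusted p = 0.0482), 0 with the mean of the probe sets, no trend, the pair averaged, the duplicates averaged or JD1203.Lu regrouped, and 0 to 2 with arrays left out. Against the TEM4-18-derived sublines 1 passed with no offset, no filter, averaged probe sets or median centring, 0 with no trend, either averaging or JD1203.Lu regrouped, and 0 to 2 with arrays left out. Between TEM4-18-derived or in vivo sublines and TEM4-18, 0 passed with any array left out. The number at least 2-fold from TEM4-18 became 2 for GS694.LAd with median centring and 0 for GS683.LALN with the larger offset. Either duplicate alone was also taken as the reference for the fold, still counting only regulators outside both duplicates. The number was then 4 for GS672.Ug, 1 to 2 for GS683.LALN, 1 to 3 for GS689.Li and GS694.LAd, and 3 for JD1203.Lu.

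Signs turned only in differences that had not passed. AXIN2 turned by parent line with median centring (-0.092) and the mean of the probe sets (-0.22), against TEM4-18 with the same settings (-0.082 and -0.12), in the in vivo sublines with centring (-0.042), and in the TEM4-18-derived sublines with JD1203.Lu regrouped (-0.42). With arrays left out AXIN2 ran from -0.055 to 0.25 by parent line, with -0.020 without GS689.Li, from -0.036 to 0.26 for the PC-3-descended sublines against TEM4-18, with -0.00075 without GS689.Li, from -0.42 to 0.50 for the TEM4-18-derived and -0.065 to 0.23 for the in vivo sublines, with -0.11 and -0.022 without TEM4-18 replicate 1 and JD1203.Lu. LGR4 turned by parent line with the pair averaged (2.2e-05) and ran from -0.38 to 0.036, with 0.023 without GS694.LAd; in the TEM4-18-derived sublines it was 0.42 with JD1203.Lu regrouped and ran from -0.67 to 0.42. DKK1 against TEM4-18 was -0.16 with centring, -0.0085 with the pair averaged and -0.14 with JD1203.Lu regrouped, and ran from -0.010 to 0.12, with -0.0068 without GS694.LAd. LEF1 against TEM4-18 was -0.084 with JD1203.Lu regrouped and ran from -0.13 to 0.91. With JD1203.Lu regrouped or left out, the TEM4-18-derived difference was -0.69 for LGR5 (range -0.69 to 1.24) and 0.0039 for RNF43 (range -0.95 to 0.18). TLE4 between the PC-3-descended and TEM4-18-derived sublines was 0.044 without GS672.Ug and 0.025 without GS683.LALN (range -0.084 to 0.044). The causes were not tested. Low signals limit LGR6, RNF43 and LEF1.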
